A study of Mus musculus with 38 samples.

Results

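Chemokine ligands and chemokine receptors were examined in 38 mouse thyroids. The set held every gene whose symbol in the probe annotation followed the Ccl, Cxcl, Cx3cl1, Xcl1, Ccr, Cxcr or Cx3cr1 naming pattern and that had a probe set with 1 symbol, and it came to 51 genes, 34 ligands and 17 receptors, of 19938 genes named on the array. Genes with more than 1 probe set were read from the brightest, judged by its average over all 38 mice. The naming pattern used no difference between groups, but the set was chosen with earlier results of these data known. Values are log2 signals, so a difference of 1 is a doubling, and levels are compared between mice and never between genes.

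All mice were FVB/N. The transgenic lines carried a human *BRAF*V600E cDNA, driven in thyroid follicular cells by a thyroglobulin promoter of bovine origin, and *BRAF*(+) meant that its RNA was found in the thyroid. The groups were 10 papillary thyroid carcinomas (PTC; 8 females, 2 males, 6 to 21 months), 10 borderline lesions (BL; 8 females, 2 males, 4 to 21 months), 4 *BRAF*(+) and 4 *BRAF*(-) benign hyperplastic lesions (BHL; 3 females and 1 male in each, 4 to 11 and 6 to 24 months), and 5 *BRAF*(+) and 5 *BRAF*(-) asymptomatic thyroids (AT; 4 females and 1 male, 7 to 11 months, and 3 females and 2 males, 4 to 12 months). All PTC and BL were *BRAF*(+), and 1 *BRAF*(-) BHL, mouse M_764, carried the transgene without its RNA. By the paper, the transgenic lines differed in the level of *BRAF*V600E protein, and the mix of lines differed between groups. Line was not in the models, and its part was not tested. One array was made per mouse, from RNA of undissected tissue of a part of the thyroid whose other part went to histology, so fewer cells of a type and less RNA per cell cannot be told apart.

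Thyroglobulin (*Tg*) lay between 13.30 and 13.74 in every mouse. The *Braf* probe set, designed for the mouse gene, averaged 9.13 ± 0.24 (SD, n = 5) in *BRAF*(-) AT, 9.38 ± 0.14 (n = 5) in *BRAF*(+) AT and 9.87 ± 0.24 (n = 10) in PTC, and how far it reads the human transgene was not tested. One *BRAF*(-) BHL, mouse M_946, stood apart: *Rag1* was 9.25 and *Dntt* 9.07, both made by immature lymphocytes of the thymus, against at most 4.75 and 4.56 in the other 37 mice. Its parathyroid hormone (*Pth*) signal was 12.95. Skeletal muscle markers were high in single mice of 4 groups (score above 1.5 in 8 mice) and parathyroid markers in 9 mice. The values these mice decide are given where they arise.

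Chemokines are small secreted proteins that steer leukocytes along a gradient through G protein-coupled receptors on the cells they attract. Some are made by resident stroma at steady state, such as *Cxcl12* and *Cxcl13*, and others are switched on in macrophages, dendritic cells or epithelium by inflammatory signals. Oncogenic *BRAF* feeds the MAPK pathway of the follicular cell, whose output includes transcription factors of the AP-1 family.

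Promoter windows, the 250 bases before the transcription start from RefSeq, could be matched to 37 of the 51 genes. Shown first are *Ccl9* and *Ccl6*, neighbours whose levels varied together, then *Ccl17* and *Ccl22*, another such pair, and last *Cxcl1*, a neutrophil attractant with little variation. Capitals mark matches, on either strand, to an NF-kB motif (GGG, any 2 bases, TTTCC), an AP-1 motif (TGANTCA) or an interferon response motif (GAAA, any 2 bases, GAAA).
Ccl9 (GRCm38.p6, chr11:83578637-83578886, minus strand): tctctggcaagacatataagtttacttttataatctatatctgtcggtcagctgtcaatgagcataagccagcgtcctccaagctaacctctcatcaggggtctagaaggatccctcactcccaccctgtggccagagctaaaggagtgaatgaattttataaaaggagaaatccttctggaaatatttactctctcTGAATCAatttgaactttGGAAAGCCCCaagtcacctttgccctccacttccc
Ccl6 (GRCm38.p6, chr11:83593088-83593337, minus strand): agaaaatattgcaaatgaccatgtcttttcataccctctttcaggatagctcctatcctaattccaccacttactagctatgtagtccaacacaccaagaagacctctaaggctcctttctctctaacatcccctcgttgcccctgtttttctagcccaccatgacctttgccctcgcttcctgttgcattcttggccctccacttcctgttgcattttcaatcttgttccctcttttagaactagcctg
Ccl17 (GRCm38.p6, chr8:94810203-94810452, plus strand): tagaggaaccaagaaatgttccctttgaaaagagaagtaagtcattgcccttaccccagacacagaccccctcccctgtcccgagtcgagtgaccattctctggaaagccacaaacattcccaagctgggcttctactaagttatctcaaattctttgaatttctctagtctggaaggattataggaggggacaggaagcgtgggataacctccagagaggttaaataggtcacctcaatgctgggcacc
Ccl22 (GRCm38.p6, chr8:94745434-94745683, plus strand): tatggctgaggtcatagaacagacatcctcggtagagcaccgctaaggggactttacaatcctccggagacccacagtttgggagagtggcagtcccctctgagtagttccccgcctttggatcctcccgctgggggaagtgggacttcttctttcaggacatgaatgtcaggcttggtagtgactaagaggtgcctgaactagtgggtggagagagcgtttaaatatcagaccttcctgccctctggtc
Cxcl1 (GRCm38.p6, chr5:90890995-90891244, plus strand): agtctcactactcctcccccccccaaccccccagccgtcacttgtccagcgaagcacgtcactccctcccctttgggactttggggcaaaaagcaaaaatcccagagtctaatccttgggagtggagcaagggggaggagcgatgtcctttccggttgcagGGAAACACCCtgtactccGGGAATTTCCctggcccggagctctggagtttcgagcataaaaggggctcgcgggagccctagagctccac
The *Ccl9* window held an NF-kB match 35 bases and an AP-1 match 53 bases before the start, and the *Cxcl1* window 2 NF-kB matches, 89 and 71 bases before it. None of the 3 motifs was in the windows of *Ccl6*, *Ccl17* and *Ccl22*, which says only that these letters are not there. The NF-kB motif occurred in 6 of the 37 windows of the set (16.2%; *Ccl9*, *Ccl20*, *Ccr3*, *Cxcl1*, *Cxcl2* and *Cxcl3*) and in 1.65% of 27025 genes. AP-1 was in 4 (10.8%, against 7.82% of all genes) and the interferon response motif in 3 (8.11%, against 3.46%). These are counts of letters and do not show binding.

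Before testing, probe sets that hardly varied were removed. A probe set stayed if at least 20% of the 38 mice differed by 1.5-fold or more from its median. That left 4388 of 35556 probe sets and 19 of the 51 chemokine genes, 16 ligands and 3 receptors (*Ccr2*, *Cxcr4* and *Cxcr6*). A gene high in a single group can stay for that reason, so counts over the 19 are descriptions. All 51 genes were also tested in a fit of all 35556 probe sets, and values from it are named as such. For PTC and BL against *BRAF*(-) AT, the shares of all probe sets given below are those of the 4388 only.

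The first question was what *BRAF*V600E RNA goes with in thyroids without carcinoma or borderline lesions, the 18 AT and BHL. Lesion type and sex were in the model. Of the 19 genes, *Ccl17*, *Ccl6*, *Ccl9* and *Ccl7* were higher and *Cxcl11* was lower in *BRAF*(+) mice, while 20.1% of all 4388 probe sets passed the same test (limma, Benjamini-Hochberg adjusted p under 0.05), 11.8% higher and 8.34% lower. The share of the chemokine genes, 26.3% of those that stayed, was near that background. Over all 51 genes the median difference was 0.11, against 0.02 over all probe sets. Without mouse M_946 the counts were 5 higher and 1 lower. The 4 higher genes became 2 without mouse M_1003 or M_943 and 1 without mouse M_930 or M_958. The number called among all 4388 probe sets, higher or lower, moved as well. It was 867 without mouse M_946, 751 without mouse M_1003, 709 without mouse M_943 and 595 without mouse M_930. Without mouse M_958 it lay between the numbers without mice M_930 and M_943. In the fit of all probe sets, which called 4.1% of them (2.19% higher and 1.91% lower), 4 of 51 chemokine genes passed: *Ccl17* (adjusted p = 0.0401), *Ccl7* (adjusted p = 0.0417), *Cxcl11* (adjusted p = 0.00272) and *Cx3cl1*.

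The second question was how far PTC and BL differ from *BRAF*(-) AT. In PTC, 8 of the 19 genes were higher (*Ccl17*, *Ccl6*, *Ccl8*, *Ccl9*, *Ccl22*, *Ccr2*, *Ccl3*, *Ccl7*) and 4 lower (*Cxcl13*, *Ccl11*, *Cxcl11*, *Cxcl12*), beside 39.5% of all probe sets called, 28.8% higher and 10.7% lower. In BL 8 were higher (*Ccl17*, *Ccl8*, *Ccl6*, *Ccl22*, *Ccr2*, *Ccl9*, *Ccl7*, *Cxcr6*) and *Cxcl11* alone was lower, beside 32.6% called, 24.3% higher and 8.27% lower, and the 8 became 4 without *BRAF*(-) AT mouse M_771 (1228 of 4388 probe sets called). PTC, BL, *BRAF*(+) BHL and *BRAF*(+) AT were each set against the same 5 *BRAF*(-) AT, so an unusual value there enters every one of these comparisons. No gene of the set differed between PTC and BL (limma, 0 of 19; 1 at an unadjusted p under 0.05, and 0 of 51 in the fit of all probe sets), and none of the 35556 probe sets did.

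**Figure D1:**
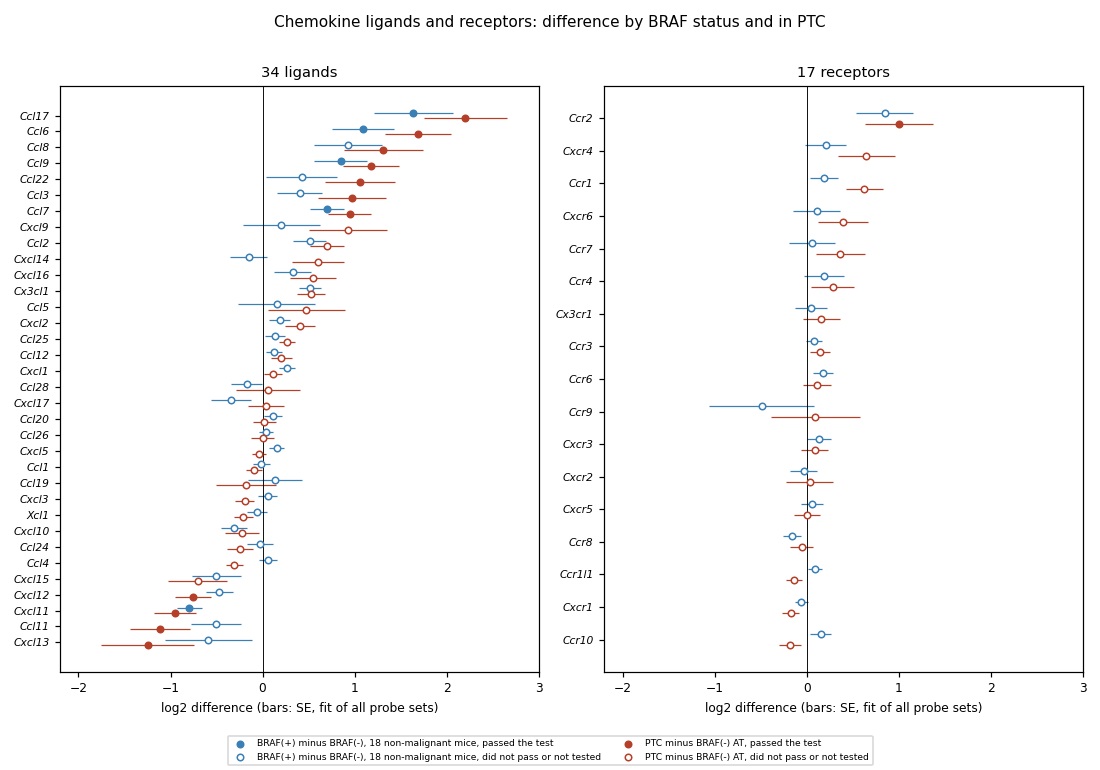
Log2 difference of each of the 51 genes by *BRAF* status in the 18 non-malignant thyroids (blue) and between PTC and *BRAF*(-) AT (red), with bars of 1 SE from the fit of all probe sets. Filled points passed the test after the variation filter. Ligands spread from *Ccl17* (2.20 in PTC) to *Cxcl13* (-1.25), and among receptors only *Ccr2* has a filled point.

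*Ccl17*, a ligand of *Ccr4* made mainly by dendritic cells and alternatively activated macrophages, had the largest difference of the set. Its signal was 5.43, 5.52, 5.67, 5.86 and 6.13 in the 5 *BRAF*(-) AT and 5.86, 5.96, 6.55 and 6.96 in the 4 *BRAF*(-) BHL. It was 6.43, 6.79, 7.30, 8.61 and 9.46 in *BRAF*(+) AT and 6.45, 6.60, 7.45 and 9.51 in *BRAF*(+) BHL. BL ran from 6.92 to 8.61 (median 8.02) and PTC from 6.48 to 9.40 (median 7.83). All 29 *BRAF*(+) mice lay above every *BRAF*(-) AT, and 22 of the 29 lay above every *BRAF*(-) mouse.
The difference by *BRAF* status was 1.64 ± 0.41 (log2, SE; 3.11-fold; adjusted p = 0.0087), and that between PTC and *BRAF*(-) AT 2.20 ± 0.44 (4.59-fold; adjusted p = 0.000179). *Ccl17* was also the only gene of the set to pass between *BRAF*(+) and *BRAF*(-) AT, thyroids without visible lesions, at 2.09 ± 0.51 (4.26-fold; adjusted p = 0.0121), where 3.87% of probe sets passed, 3.62% higher. That call was lost without *BRAF*(+) AT mouse M_1003 or mouse M_948, the 2 highest of the group, and in the fit of all probe sets (adjusted p = 0.0765).

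*Ccl22*, the other ligand of *Ccr4* and a neighbour of *Ccl17* in the gene order Ccl22, Cx3cl1, Ccl17, was 4.77, 4.83, 5.02, 5.32 and 5.51 in *BRAF*(-) AT, 5.34 to 6.98 in PTC (median 6.05) and 5.62 to 7.65 in BL (median 6.12). It was 5.17, 5.27, 6.28 and 7.16 in *BRAF*(-) BHL, and 5.04, 5.57, 5.69, 6.90 and 7.47 in *BRAF*(+) AT, and 4.95, 5.09, 5.75 and 6.80 in *BRAF*(+) BHL. All 10 BL lay above every *BRAF*(-) AT, and 8 of 10 PTC did. The difference was 1.06 ± 0.38 in PTC (adjusted p = 0.0253) and 1.30 ± 0.38 in BL (adjusted p = 0.01), the former lost without *BRAF*(-) AT mouse M_771, M_940 or M_957 (adjusted p from 0.0524 to 0.0584). By *BRAF* status in non-malignant thyroids it was 0.42 ± 0.37 (adjusted p = 0.475), and *BRAF*(-) BHL mouse M_946 had 7.16, above all PTC. The receptor *Ccr4*, carried by regulatory and helper T cells, did not vary enough to stay and differed by 0.28 in PTC (SE 0.24, adjusted p = 0.429 in the fit of all probe sets).

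*Cx3cl1*, a membrane-bound ligand made by epithelium and endothelium, lies between them in that order. It varied too little to stay, but passed in the fit of all probe sets. It was 7.56 to 8.19 in the 5 *BRAF*(-) AT and 7.73 to 8.11 in the 4 *BRAF*(-) BHL, against 7.98, 8.02, 8.39, 8.51 and 8.61 in *BRAF*(+) AT and 8.10, 8.34, 8.77 and 8.81 in *BRAF*(+) BHL. Of these 9 *BRAF*(+) mice, 6 lay above every *BRAF*(-) mouse. The difference was 0.52 ± 0.12 by *BRAF* status (adjusted p = 0.0179) and 0.53 ± 0.15 in PTC (adjusted p = 0.0142). Its receptor *Cx3cr1* differed by 0.16 in PTC (SE 0.20, adjusted p = 0.613 in that fit).

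*Ccl6* and *Ccl9*, ligands of *Ccr1* found in rodents and neighbours in the genome, were higher together. *Ccl6* was 7.31, 7.32, 7.91, 8.05 and 8.69 in *BRAF*(-) AT and 7.47, 7.59, 8.47 and 9.12 in *BRAF*(-) BHL. In *BRAF*(+) BHL it was 9.02, 9.17, 9.67 and 10.36, and in *BRAF*(+) AT 7.26, 8.13, 9.14, 9.42 and 9.98. BL ran from 7.59 to 9.94 (median 9.30) and PTC from 8.73 to 10.01 (median 9.54), so all 10 PTC lay above every *BRAF*(-) AT.
The difference of *Ccl6* was 1.09 ± 0.33 by *BRAF* status (2.13-fold; adjusted p = 0.025) and 1.69 ± 0.36 in PTC (3.22-fold; adjusted p = 0.000316). *Ccl9* was 6.85, 7.01, 7.67, 7.78 and 8.16 in *BRAF*(-) AT, and 7.00, 7.50, 7.94 and 8.18 in *BRAF*(-) BHL. It was 7.07, 7.83, 8.52, 8.97 and 9.41 in *BRAF*(+) AT, and 7.84, 8.14, 8.97 and 9.41 in *BRAF*(+) BHL. *Ccl9* ran from 7.84 to 8.93 in BL (median 8.54) and from 7.68 to 9.05 in PTC (median 8.83), and 9 of 10 PTC lay above every *BRAF*(-) AT. Its difference was 0.85 ± 0.30 by *BRAF* status (adjusted p = 0.0469) and 1.18 ± 0.31 in PTC (adjusted p = 0.00249). The first of these sat at the threshold and was lost without any one of most of the 18 mice, with the highest adjusted p (0.159; difference 0.60) without *BRAF*(+) BHL mouse M_958. The *Ccl6* call by *BRAF* status was lost without mouse M_958 (adjusted p = 0.0809) or *BRAF*(-) BHL mouse M_930 (adjusted p = 0.0627). Mouse M_958, a male, had the highest *Ccl6* and *Ccl17* of the 18 non-malignant mice.
Within groups, with group means taken out, *Ccl6* and *Ccl9* were correlated over the 38 mice (Pearson r = 0.86, Spearman rho = 0.85; permutation test, two-sided, adjusted p = 6.5e-05 and 7.09e-05 over 78 pairs of 13 genes, r = 0.84 without the 2 mice farthest from the median), as were *Ccl17* and *Ccl22* (r = 0.84, rho = 0.87, same adjusted p; r = 0.80 without 2 mice).

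The monocyte attractants *Ccl2*, *Ccl7* and *Ccl8*, which act on *Ccr2* and other receptors and lie in 1 gene cluster, were next. *Ccl7* was 5.53, 5.67, 5.85, 6.09 and 6.33 in *BRAF*(-) AT and 6.70, 6.86, 7.06 and 8.05 in *BRAF*(+) BHL, which did not overlap. It was 5.77, 5.97, 6.29 and 6.54 in *BRAF*(-) BHL, and 5.64, 6.11, 6.63, 6.70 and 7.06 in *BRAF*(+) AT. PTC ran from 6.09 to 7.72 (median 7.03) and BL from 5.94 to 7.75 (median 6.74). The difference was 0.70 ± 0.22 by *BRAF* status (adjusted p = 0.027) and 0.95 ± 0.25 in PTC (adjusted p = 0.00265). The first was lost without mouse M_930, M_943, M_958 or M_1003 (adjusted p from 0.0503 to 0.0658). Between *BRAF*(+) and *BRAF*(-) BHL, where 24.2% of all probe sets passed, 13.5% higher and 10.7% lower, *Ccl7* (1.03 ± 0.32, adjusted p = 0.0148) and *Ccl6* (1.39 ± 0.46, adjusted p = 0.0213) were the members that were higher.
*Ccl8* was 4.68, 5.05, 5.71, 6.25 and 7.24 in *BRAF*(-) AT, and 5.69, 6.37, 7.39 and 7.92 in *BRAF*(-) BHL. It was 5.84, 6.38, 8.31, 8.39 and 8.60 in *BRAF*(+) AT, and 6.49, 6.92, 7.10 and 8.06 in *BRAF*(+) BHL. With BL from 5.33 to 8.18 (median 7.42) and PTC from 6.40 to 8.13 (median 7.39), it passed in PTC (1.31 ± 0.42, adjusted p = 0.0128) and BL (1.32 ± 0.42, adjusted p = 0.0167), with only 6 of 10 mice of either above every *BRAF*(-) AT. *Ccl2* varied too little to stay. In the fit of all probe sets it was higher in PTC (0.70 ± 0.19, adjusted p = 0.0081) and BL (0.72 ± 0.19, adjusted p = 0.0115), and 9 of 10 PTC and all 10 BL lay above every *BRAF*(-) AT.

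*Ccr2*, the receptor that draws monocytes out of the bone marrow and into tissue, was 6.21, 6.40, 7.02, 7.06 and 7.22 in *BRAF*(-) AT and 7.02, 7.64, 8.12, 8.23 and 8.98 in *BRAF*(+) AT. It was 6.03, 6.86, 7.05 and 7.47 in *BRAF*(-) BHL, and 6.34, 6.90, 7.35 and 8.63 in *BRAF*(+) BHL. PTC spread widely, from 6.24 to 9.39 (median 7.53), and BL from 7.12 to 8.68 (median 7.58). The difference was 1.004 ± 0.37 in PTC (adjusted p = 0.0295) and 1.05 ± 0.37 in BL (adjusted p = 0.0281). The PTC call was lost without *BRAF*(-) AT mouse M_524 or M_771 or PTC mouse M_700 (adjusted p from 0.0808 to 0.106). By *BRAF* status it was 0.85 ± 0.31 (adjusted p = 0.0579), just outside the threshold, and it passed with an intensity trend and robust prior (adjusted p = 0.0475), with array weights (adjusted p = 0.0217), without lesion type and sex (adjusted p = 0.0465) and with muscle and adipocyte scores (2.01, adjusted p = 0.0163). The PTC call was lost without sex in the model (adjusted p = 0.0506), and in the fit of all probe sets *Ccr2* passed in neither PTC (adjusted p = 0.0551) nor BL (adjusted p = 0.0601). *Ccr1*, the receptor of *Ccl6*, *Ccl9* and *Ccl3* on myeloid cells, was higher in PTC in that fit (0.63 ± 0.20, adjusted p = 0.0267).
*Ccl3*, an inflammatory ligand of *Ccr1* and other receptors, was 4.92, 4.95, 5.05, 5.09 and 5.24 in *BRAF*(-) AT and 4.69, 4.98, 6.03 and 6.58 in *BRAF*(-) BHL. It was 4.66, 5.09, 5.37, 5.39 and 6.23 in *BRAF*(+) AT, and 5.69, 5.80, 6.12 and 6.83 in *BRAF*(+) BHL. The carcinomas and borderline lesions overlapped these, BL from 4.64 to 7.30 (median 5.73) and PTC from 5.02 to 7.12 (median 5.82). Its difference of 0.97 ± 0.36 in PTC (adjusted p = 0.0319) was lost without any one of 3 PTC (mice M_358, M_359 and M_415) or of 4 *BRAF*(-) AT (mice M_524, M_940, M_956 and M_957), at adjusted p of 0.0515 to 0.0678, and in the fit of all probe sets (adjusted p = 0.0584). Its neighbour *Ccl4*, which acts on some of the same receptors, was lower in PTC in the fit of all probe sets, by a small amount (-0.31, SE 0.09, adjusted p = 0.0186). *Ccl4* was 4.81 to 5.10 in *BRAF*(-) AT and 4.43 to 4.71 in PTC, and the *BRAF*(-) BHL lay within the PTC range, at 4.50 to 4.68.

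**Figure D2:**
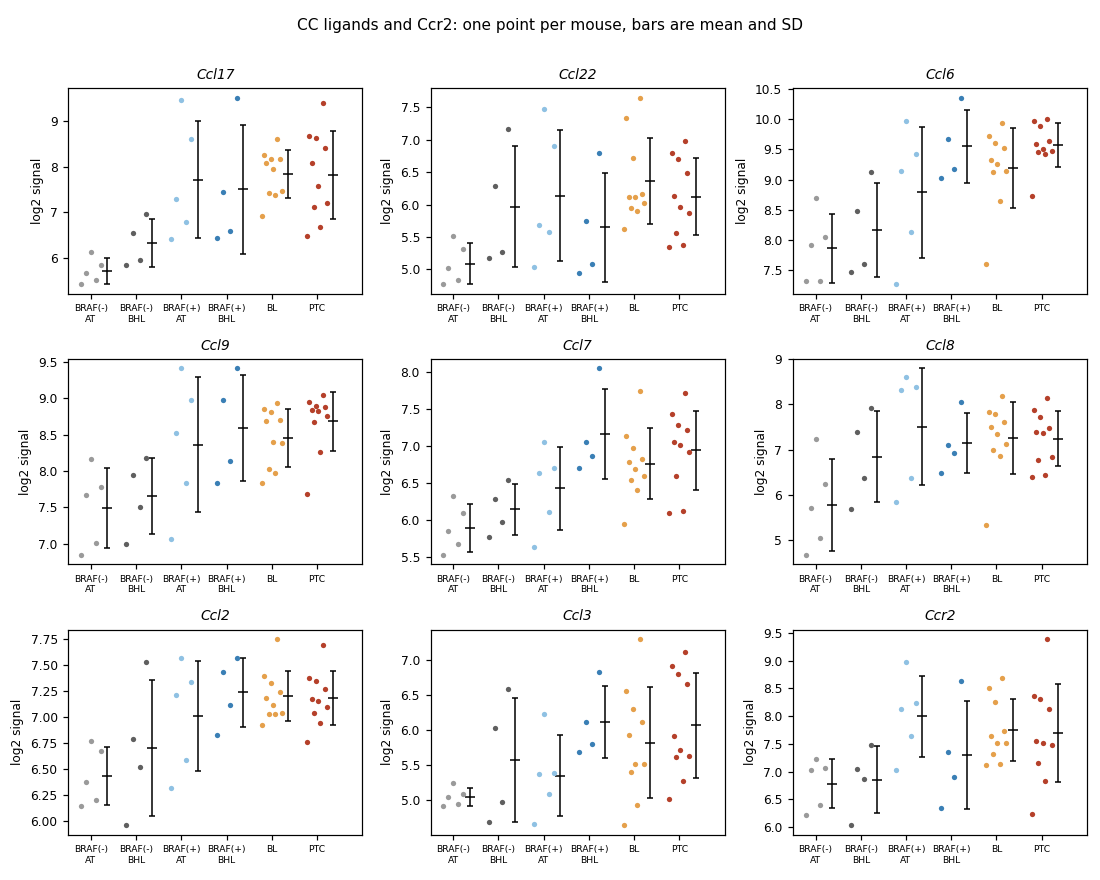
Log2 signal of 8 CC ligands and *Ccr2* in each of 38 mice (1 point per mouse) by group, with the mean and SD of the group as a bar; each panel has its own axis. All 29 *BRAF*(+) mice exceed the 5 *BRAF*(-) AT for *Ccl17*, while *Ccl8* and *Ccr2* overlap.

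Of the ligands, 4 were lower. *Cxcl11*, an interferon-induced ligand of *Cxcr3*, a receptor on activated T cells, was lower in *BRAF*(+) thyroids. Its signal was 7.12, 7.12, 7.37, 7.38 and 7.69 in *BRAF*(-) AT and 6.77, 7.13, 7.20 and 7.61 in *BRAF*(-) BHL. It was 6.34, 6.45, 6.81, 6.83 and 6.99 in *BRAF*(+) AT and 5.91, 5.95, 6.27 and 6.56 in *BRAF*(+) BHL. BL ran from 6.07 to 6.89 (median 6.43) and PTC from 5.66 to 7.65 (median 6.13). Of the 29 *BRAF*(+) mice, 27 lay below every *BRAF*(-) AT, and the other 2, PTC mice M_700 and M_347, had 7.56 and 7.65.
The difference was -0.80 ± 0.18 by *BRAF* status (1.74-fold lower; adjusted p = 0.00503), -0.95 ± 0.25 in PTC (1.94-fold; adjusted p = 0.00218) and -0.83 ± 0.25 in BL (adjusted p = 0.0105). Leaving out any single mouse lost none of the *BRAF* status and PTC calls. The other ligands of *Cxcr3* did not pass: *Cxcl9* differed by 0.93 ± 0.42 in PTC (adjusted p = 0.0724) and *Cxcl10* by -0.22 (SE 0.19, adjusted p = 0.429 in the fit of all probe sets). *Cxcr3* itself differed by 0.09 in PTC (SE 0.15, adjusted p = 0.725 in that fit). Of the interferon response list, 1 of 7 genes that stayed was higher by *BRAF* status, beside 11.8% of all probe sets, and 1 was lower in PTC, beside 10.7%.

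*Ccl11*, the eosinophil attractant eotaxin, *Cxcl12*, made by stroma and bound by *Cxcr4*, and *Cxcl13*, the B cell attractant bound by *Cxcr5*, had another pattern. All 3 were lower in *BRAF*(+) BHL and in PTC, and none passed between *BRAF*(+) and *BRAF*(-) AT. *Ccl11* was 9.16, 9.26, 9.26, 9.42 and 9.68 in *BRAF*(-) AT and 9.12, 9.48, 9.63, 9.77 and 10.00 in *BRAF*(+) AT. It was 9.19, 9.45, 9.55 and 10.04 in *BRAF*(-) BHL and 7.51, 7.64, 8.22 and 9.05 in *BRAF*(+) BHL, with no overlap. PTC ran from 7.17 to 9.18 (median 7.91), 9 of 10 below every *BRAF*(-) mouse, and BL from 7.13 to 9.55 (median 8.84), 6 of 10 below.
The difference of *Ccl11* was -1.12 ± 0.33 in PTC (2.17-fold lower; adjusted p = 0.00741), -1.18 ± 0.40 in *BRAF*(+) BHL against *BRAF*(-) AT (adjusted p = 0.0257), -1.45 ± 0.42 between the BHL groups (adjusted p = 0.00993) and -1.45 ± 0.33 between PTC and *BRAF*(+) AT (adjusted p = 0.0029). In *BRAF*(+) against *BRAF*(-) AT it was 0.33 ± 0.38 (adjusted p = 0.727). The interaction of *BRAF* status and lesion type, which tests whether the *BRAF* difference is the same in BHL as in AT, was -1.73 ± 0.43 and did not pass after adjustment (adjusted p = 0.0696). No gene of the set passed that test (limma, 0 of 19; 7 at an unadjusted p under 0.05), beside 0.593% of all probe sets, 0.342% with a value below 0. Sex gave no call in the set either (limma, 0 of 19; 3 at an unadjusted p under 0.05, and 0 of 51 in the fit of all probe sets), beside 1.12% and, in that fit, 0.233% of probe sets. These shares are of probe sets past the adjusted threshold. No share at an unadjusted p under 0.05 is given here, so the counts at that level have no background beside them.

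*Cxcl12* was 8.23, 8.35, 8.43, 8.44 and 8.70 in *BRAF*(-) AT, 7.93, 8.19, 8.23, 8.25 and 8.53 in *BRAF*(+) AT and 7.07, 7.39, 7.96 and 8.14 in *BRAF*(+) BHL. It was 8.13, 8.44, 8.69 and 8.83 in *BRAF*(-) BHL. BL ran from 7.23 to 8.47 (median 8.02). PTC ran from 6.54 to 8.28 (median 7.71), 9 of 10 below every *BRAF*(-) AT. Its difference was -0.75 ± 0.22 in PTC (adjusted p = 0.00584), -0.73 ± 0.26 in *BRAF*(+) BHL (adjusted p = 0.0373) and -0.48 ± 0.22 in BL (adjusted p = 0.0862). The receptor *Cxcr4* was 0.65 ± 0.31 in PTC (adjusted p = 0.0935).
*Cxcl13* spread more within groups, 7.46 to 10.34 in *BRAF*(-) AT, 6.93 to 8.77 in PTC (median 7.26) and 5.22, 6.24, 7.26 and 10.11 in *BRAF*(+) BHL, where mouse M_958 stood above the other 3. It was 7.73, 8.84, 9.53 and 9.56 in *BRAF*(-) BHL, and 7.90, 8.53, 8.72, 9.77 and 10.12 in *BRAF*(+) AT. BL ran from 6.53 to 9.41 (median 8.14). The difference in PTC was -1.25 ± 0.49 (adjusted p = 0.0402), and it was lost without any one of 6 PTC or of 4 *BRAF*(-) AT (adjusted p from 0.0504 to 0.111). It was also lost in the fit of all probe sets (adjusted p = 0.0782), in an unmoderated linear model (adjusted p = 0.0602) and with an intensity trend and robust prior (adjusted p = 0.0523). *Cxcr5* differed by 0.01 in PTC (SE 0.14, adjusted p = 0.98 in the fit of all probe sets). *Ccl7* and *Ccl11*, which went opposite ways in PTC and in *BRAF*(+) BHL, are direct neighbours in the gene order Ccl2, Ccl7, Ccl11, Ccl12, Ccl8, Ccl1.

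**Figure D3:**
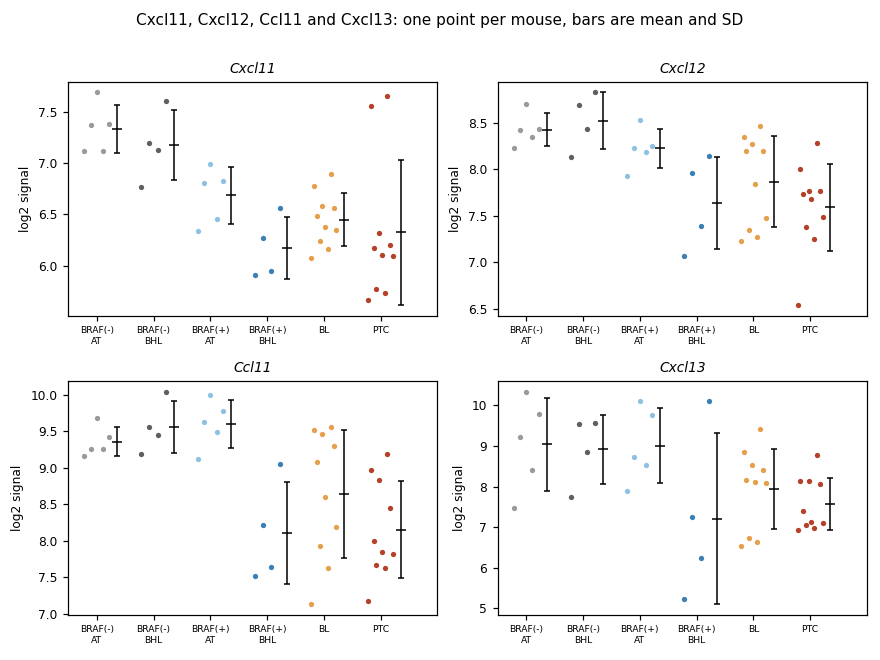
Log2 signal of *Cxcl11*, *Cxcl12*, *Ccl11* and *Cxcl13* in each of 38 mice (1 point per mouse) by group, with the group mean and SD as a bar; each panel has its own axis. *Cxcl11* is below the *BRAF*(-) AT in all 5 *BRAF*(+) AT, while *Ccl11* and *Cxcl13* have *BRAF*(+) AT means of 9.60 and 9.01, near the *BRAF*(-) AT means of 9.36 and 9.04.

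Against *BRAF*(+) AT, 4 genes were lower in PTC, *Ccl11*, *Cxcl13* (-1.44 ± 0.49, adjusted p = 0.0256), *Cxcl12* (-0.64 ± 0.22, adjusted p = 0.0256) and *Ccl19* (-1.15 ± 0.32, adjusted p = 0.0103), and none was higher, beside 28.4% of all probe sets called, 22.6% higher and 5.83% lower. *Ccl19*, a ligand of *Ccr7* made by lymphoid stroma, averaged 8.03 ± 0.60 in *BRAF*(+) AT (n = 5) and 6.88 ± 0.58 in PTC (n = 10), with *BRAF*(-) AT between them at 7.14 ± 0.35 (n = 5). In the fit of all probe sets the count was 1 higher and 6 lower, beside 5309 of all 35556 probe sets called, higher or lower. Leaving out *BRAF*(+) AT mouse M_779 brought the 4 down to 2, beside 757 of 4388 probe sets called.
*BRAF*(+) BHL against *BRAF*(-) AT had 4 genes higher (*Ccl7*, *Ccl6*, *Ccl17*, *Ccl9*) and 4 lower (*Cxcl11*, *Ccl11*, *Cxcl12*, *Cxcl13*), beside 25.9% of all probe sets called, 16.1% higher and 9.75% lower, and the 8 became 5 without *BRAF*(-) AT mouse M_524 or *BRAF*(+) BHL mouse M_942. Of the 4388 probe sets, 1011 were called without mouse M_524 and 890 without mouse M_942. *BRAF*(-) BHL did not differ from *BRAF*(-) AT in any gene of the set (limma, 0 of 19, 0 at an unadjusted p under 0.05) or in any probe set. Over the 6 groups together 10 of the 19 genes differed (F test), beside 39.9% of all probe sets. Without mouse M_946, 14 of those tested did so, beside 1828 of 4388 probe sets called.

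Of 7 neutrophil chemokines and receptors, none was called by *BRAF* status or in PTC. *Cxcl1*, *Cxcl2*, *Cxcl3*, *Cxcl5* and *Cxcl15* with the receptors *Cxcr1* and *Cxcr2* gave differences from -0.50 to 0.26 by *BRAF* status and -0.70 to 0.41 in PTC, and none passed in either, with or without the variation filter. Only 1 of these 7 varied enough to stay. *Cxcl2*, which did not pass in either comparison, was 4.07 to 4.45 in *BRAF*(-) AT. In PTC its lowest value was 4.25, and the next ran from 4.46 to 5.33. *Cxcl2* was 3.98 to 4.26 in *BRAF*(-) BHL and 4.37 to 4.78 in *BRAF*(+) BHL, which did not overlap. It ran from 3.76 to 4.64 in *BRAF*(+) AT and from 4.04 to 5.09 in BL. *Cxcl1* was 5.73 to 6.20 in *BRAF*(-) AT and 5.83 to 6.34 in PTC. It was 5.80, 5.83, 5.85 and 5.88 in *BRAF*(-) BHL and 6.13, 6.14, 6.30 and 6.55 in *BRAF*(+) BHL, which did not overlap, and between these groups it was higher in the fit of all probe sets (0.44 ± 0.13, adjusted p = 0.0268), where 2.98% of probe sets were higher and 3.64% lower. Of 12 neutrophil marker genes measured, 1 was higher in PTC in the fit of all probe sets (*Csf3r*, adjusted p = 0.0166). The share of all probe sets higher in PTC in that fit is not given here, so this count has no background beside it. *Cxcr6*, a receptor of memory T cells, was 5.27, 5.32, 5.37, 5.40 and 5.73 in *BRAF*(-) AT, and 5.10, 5.65, 5.80 and 7.33 in *BRAF*(-) BHL. It was 5.59, 5.77, 6.03, 6.27 and 6.79 in *BRAF*(+) AT, and 5.16, 5.46, 5.60 and 5.65 in *BRAF*(+) BHL. With BL from 5.34 to 6.83 (median 6.10) and PTC from 5.35 to 6.95 (median 5.66), it was higher in BL (0.73 ± 0.28, adjusted p = 0.0448) and not in PTC (0.39 ± 0.28, adjusted p = 0.272), and a difference between BL and PTC did not pass. The lymphocyte-attracting *Ccl5* reached 9.97 and *Ccr9*, a receptor of thymocytes, 10.03 in mouse M_946, against at most 9.08 and 5.70 in the others.

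Genes of other cell types were read from marker lists. Beside every list count below stand the shares of all 4388 probe sets, 11.8% higher and 8.34% lower by *BRAF* status. In PTC these shares were 28.8% higher and 10.7% lower. Of 16 macrophage and monocyte markers measured, 10 stayed, of which 2 were higher by *BRAF* status and 9 in PTC, with a median difference of 0.52 and 0.90. The macrophage score, the mean centred log2 signal of the 16, averaged -0.60 in *BRAF*(-) AT (-1.11 to -0.23), -0.34 in *BRAF*(-) BHL, 0.02 in *BRAF*(+) AT, 0.13 in *BRAF*(+) BHL and in BL and 0.25 in PTC (-0.40 to 0.50). *Fcgr2b*, an inhibitory Fc receptor, led the list (1.30 ± 0.24 by *BRAF* status, adjusted p = 0.000979; 1.52 ± 0.27 in PTC, adjusted p = 3.33e-05). The 2 male *BRAF*(-) AT, mice M_524 and M_771, had the lowest macrophage scores of that group (-1.11 and -0.98) and its 2 lowest *Ccl6*, *Ccl9*, *Ccl7*, *Ccl8* and *Ccr2*.
Dendritic cell markers were higher for 4 of 7 by *BRAF* status and 3 of 7 in PTC, among them *Itgax*, the integrin CD11c (1.09 ± 0.28, adjusted p = 0.00974), and *Cd209a* (1.33 ± 0.31, adjusted p = 0.00492), both by *BRAF* status. The dendritic cell score averaged -0.42 in *BRAF*(-) AT, -0.335 in *BRAF*(-) BHL, 0.34 in *BRAF*(+) AT, -0.15 in *BRAF*(+) BHL, 0.19 in BL and 0.05 in PTC, where it ran from -0.839 to 0.855 (median -0.156). MAPK output genes were higher for 7 of 8 by *BRAF* status and 8 of 8 in PTC, led by *Egr1* (1.22 ± 0.21, adjusted p = 0.000407). Of 6 inflammatory and NF-kB target genes that stayed, 4 were higher by *BRAF* status, *Il1b* among them (0.75 ± 0.20, adjusted p = 0.0124), while *Tnf* differed by 0.14 (SE 0.12, adjusted p = 0.644 in the fit of all probe sets). None of 6 T cell and NK cell genes that stayed was called by *BRAF* status and 1 was higher in PTC. Of 5 B cell and plasma cell genes 0 and 3 were higher, and of 2 eosinophil and mast cell genes none was called in either comparison (limma). Genes that relay chemokine receptor signals were higher for 2 of 9 by *BRAF* status and 5 of 9 in PTC. Adipocyte genes were lower for 6 of 8 by *BRAF* status and 7 of 8 in PTC, for example *Adipoq* (-0.99 ± 0.22, adjusted p = 0.00427), and thyroid follicular genes for 3 of 5 and 5 of 5, for example the iodide transporter *Slc5a5* (-1.13 ± 0.29, adjusted p = 0.00974). Atypical and decoy receptors and other family members outside the naming pattern gave 0 of 5 by *BRAF* status and 1 of 5 in PTC (*Ackr4*, a scavenger of *Ccl19*, 0.54 ± 0.19, adjusted p = 0.0205).

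With group means taken out, members are set below against 1 list each, which does not part one list from another. *Ccl9* and *Ccr2*, set against different scores, were themselves correlated within groups (r = 0.73). So was *Ccl17* with each of them (r = 0.76 and 0.77). How far the scores overlap was not tested. *Ccl9* (r = 0.87, rho = 0.81), *Ccl8* (r = 0.80, rho = 0.77) and *Ccl6* (r = 0.78, rho = 0.73) followed the macrophage score over 38 mice, each at an adjusted p of at most 0.000111 (permutation test, two-sided, over 52 relations), and r was 0.85, 0.78 and 0.75 without the 2 mice farthest from the median score. *Ccr2* followed the dendritic cell score (r = 0.89, rho = 0.90; 0.85 without 2 mice). *Cxcl13* ran against the MAPK output score (r = -0.70, rho = -0.75; -0.66 without 2 mice), as did *Cxcl12* (r = -0.63, rho = -0.65; -0.58 without 2 mice). Within the 10 PTC alone r was 0.74 for *Ccl9*, 0.96 for *Ccr2* and -0.82 for *Cxcl13*, and within the 10 BL 0.76, 0.84 and -0.74. Sex, age and transgenic line were not taken out of these correlations, and their part was not tested.

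**Figure D4:**
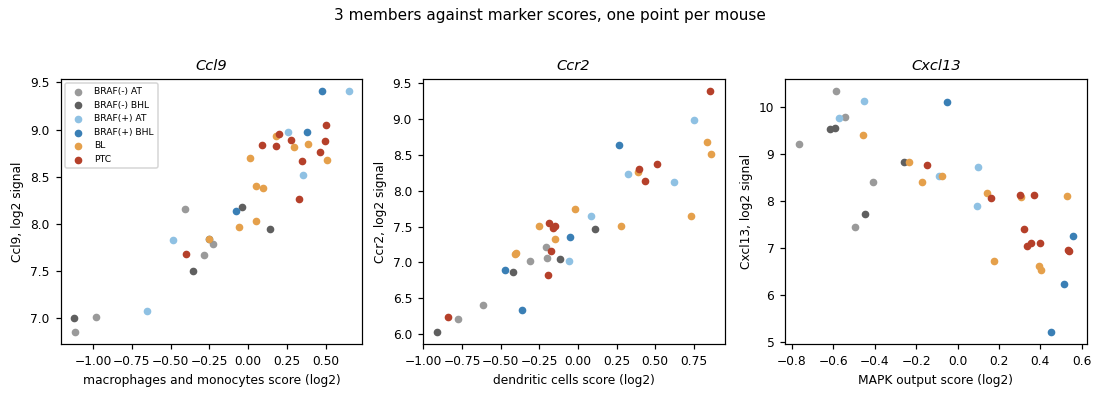
Log2 signal of *Ccl9*, *Ccr2* and *Cxcl13* (vertical axes) against the macrophage, dendritic cell and MAPK output scores (mean centred log2 signal, horizontal axes), 1 point per mouse, 38 mice coloured by group. *Ccl9* and *Ccr2* rise with their scores within groups and *Cxcl13* falls.

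The macrophage score, which itself averaged -0.60 in *BRAF*(-) AT and 0.25 in PTC, was put into the model as a covariate. A member that rises with the score loses part of its difference by construction. All 8 genes higher in PTC lost their call. Over all probe sets the share higher in PTC went from 28.8% to 18.8% and the share lower from 10.7% to 7.82%. *Ccl17* kept 0.81 (adjusted p = 0.124), *Ccl6* 0.52 (adjusted p = 0.205) and *Ccl7* 0.40 (adjusted p = 0.273), and *Ccl9* 0.07 (adjusted p = 0.845). Of the 4 lower genes 3 kept theirs, *Cxcl11* at -1.17 (adjusted p = 0.00394), *Cxcl12* at -1.04 (adjusted p = 0.00292) and *Ccl11* at -1.71 (adjusted p = 0.00124). *Cxcl13*, the fourth, lost its call with the difference little moved, at -1.19 ± 0.62 (adjusted p = 0.152).
With skeletal muscle and adipocyte scores in the model instead, all 8 higher genes kept their call in PTC and *Cxcl11* alone of the lower ones did (-0.96, adjusted p = 0.00984), with *Ccl11* at -0.91 (adjusted p = 0.0594), *Cxcl12* at -0.50 (adjusted p = 0.0925) and *Cxcl13* at -0.85 (adjusted p = 0.234), beside 24.5% of all probe sets higher and 7.36% lower. By *BRAF* status the same 2 scores left 3.97% of all probe sets higher and 0.456% lower, and the genes called were others in part. *Ccl17* (2.87 ± 0.66, adjusted p = 0.0192) and *Ccl9* (1.73 ± 0.47, adjusted p = 0.0425) had larger differences than without the scores. *Ccl8* (2.35 ± 0.50, adjusted p = 0.0149) and *Ccr2* (2.01 ± 0.45, adjusted p = 0.0163) passed, where without the scores *Ccl8* had been 0.93 ± 0.36 (adjusted p = 0.072). *Ccl6* (1.82 ± 0.56, adjusted p = 0.0732), *Ccl7* (0.79 ± 0.37, adjusted p = 0.253) and *Cxcl11* (-0.65 ± 0.30, adjusted p = 0.252) no longer passed. A score that itself differs between groups takes part of the group difference with it, so these values describe what moves together. In the 29 females, PTC against *BRAF*(-) AT had *Ccl17*, *Ccl6* and *Ccl7* higher and *Ccl11*, *Cxcl11* and *Cxcl12* lower, beside 20.8% of all probe sets higher and 8.11% lower. *Ccl3* no longer passed there at a difference of 1.06 ± 0.47 (adjusted p = 0.0922, against 0.97 in both sexes) and *Cxcl13* at -1.01 ± 0.53 (adjusted p = 0.152), while *Ccr2* was 0.33 ± 0.37 (adjusted p = 0.528). By *BRAF* status in females *Cxcl11* alone passed (-0.96, adjusted p = 0.00927), beside 8.14% of all probe sets higher and 5.58% lower. *Ccl7* was 0.78 ± 0.27 there (adjusted p = 0.0642), no smaller than in both sexes, and *Ccl17* was 1.32 ± 0.46 (adjusted p = 0.0636).

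**Figure D5:**
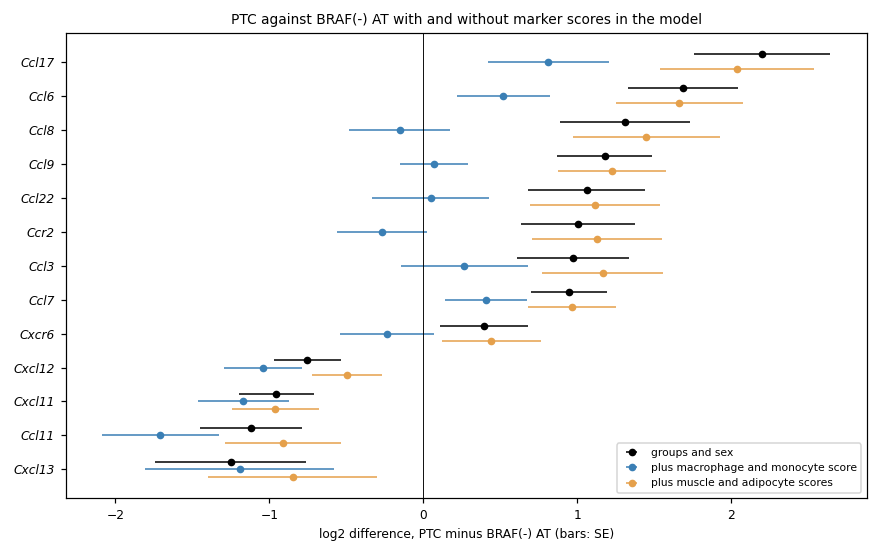
Log2 difference between PTC and *BRAF*(-) AT for 13 genes, with bars of 1 SE, from the model with groups and sex (black), with the macrophage and monocyte score added (blue) and with muscle and adipocyte scores added (orange). The 8 higher genes move toward 0 with the macrophage score, *Ccl8* and *Ccr2* past it, and *Cxcl11* stays between -1.17 and -0.95 in all 3 models.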

How the data were processed

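RNA from 38 thyroids was measured on Affymetrix GeneChip Mouse Gene 1.0 ST arrays, 1 per mouse. The authors deposited RMA values (background-corrected, quantile-normalized, summarized per probe set) on the log2 scale, 2.036 to 14.182, with array medians of 6.002 to 6.155. The genome build of the probe sets is not given in the sources used here, so gene order came from RefSeq and no probe coordinate is printed. Groups came from the sample labels. Array data hold no read depth, and the number of arrays limits the precision.

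Probe sets were named through the platform annotation: 21789 had 1 symbol, 1621 several and 12146 were not listed. Of those with several symbols, 7 followed the naming pattern (4 of the Ccl21 group, 3 of the Ccl27 group) and were not named. The 19938 genes include *Ccl19* and *Ccl25*, the 2 members with more than 1 probe set. The members and gene lists were chosen with earlier results of these data known.

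The variation filter and the model by *BRAF* status, lesion type and sex followed the study's methods. Tests used limma 3.58.1 in R 4.3.3 (lmFit, eBayes, Benjamini-Hochberg over all probe sets tested, threshold 0.05): 1 model of 18 non-malignant mice, 1 with an interaction, and 1 of 6 groups and sex over 38 mice with 9 contrasts. Scripts were tested on simulated data. Genes with values for all groups were the 13 members past the threshold by *BRAF* status, in PTC or in BL against *BRAF*(-) AT, or in the interaction; up to 4 genes per other list were those with the largest moderated statistic by *BRAF* status, besides *Il1b*, *Tnf*, *Tg* and *Braf*. *Ccl2*, *Ccl4*, *Ccl5*, *Ccl19*, *Cx3cl1*, *Ccr1*, *Ccr9*, *Cxcl1* and *Cxcl2*, *Csf3r* and *Ackr4* and the receptors set beside their ligands were chosen after their values were seen, as were *Rag1*, *Dntt*, *Pth* and *Myh4*. Correlations used 100000 permutations within groups (Python 3, numpy). Alternatives are listed with their effect in the closing section. The labels do not say whether mice shared a litter or a processing day.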

Additional observations from a re-analysis of the deposited data

Results flagged for a closer look

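3 of 78 sets of values (13 genes in 6 groups) held a mouse whose gap to its nearest neighbour was large for the range of its group, a check that chance alone meets in about 1 of 20. *Ccl6* was 8.73 in PTC mouse M_1002, a 21-month-old female, and 9.43 in the next PTC. *Ccl8* was 5.33 in BL mouse M_649, a 10-month-old female, and 6.86 in the next BL. *Cxcr6* was 5.73 in *BRAF*(-) AT mouse M_957, a 12-month-old female, and 5.40 in the next. The macrophage scores were -0.40 for mouse M_1002, the lowest of PTC, and -0.25 for mouse M_649, the lowest of BL. Mouse M_1002 also had the highest signal of all mice for *Myh4*, a skeletal muscle gene (9.16, median 4.62). The part these play was not tested.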

How the results depend on the processing

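Each of 15 counts and 26 named differences was recomputed under 13 other settings and without each mouse. Scores that differ between groups remove part of the group difference by construction, and the other causes were not tested. Higher genes by *BRAF* status (4) became 2 in an unmoderated linear model (beside 11.5% of all probe sets higher) and with age as a covariate (8.89%), and 0 with the macrophage score (5.54%) and in females only (8.14%), and lower genes (1) became 2 unmoderated (8.36% lower) and 0 with muscle and adipocyte scores (0.456%). In that last setting 4 genes were higher, of which 2 were others. With the macrophage score, higher genes were 0 in PTC (18.8% of all probe sets) and 1 in BL (13.2%), lower genes in BL 3 (5.13%), the interaction had 2 (1.82%), *BRAF*(+) BHL 3 (20.2%) and *BRAF*(+) AT 0 (0.912%) against *BRAF*(-) AT, and the 6 groups 5 (29.8%). With muscle and adipocyte scores, lower genes in PTC were 1 (7.36%), higher genes in BL 5 (15%), *BRAF*(+) BHL had 4 (17.5%) and *BRAF*(+) AT 0 (2.3%) against *BRAF*(-) AT, the BHL groups differed in 1 (13.5%) and the 6 groups in 4 (25.3%). In females only, higher genes were 3 in PTC (20.8%) and 1 in BL (13.6%), and *BRAF*(+) BHL had 4 (22.1%). Without the variation filter *BRAF*(+) AT had 0 (0.256%) and PTC against *BRAF*(+) AT 7 (14.9%). Array weights gave 6 for *BRAF*(+) AT (8.8%) and 2 for the interaction (4.26%), and an intensity trend with a robust prior 1 for the interaction (0.638%). Signs turned with muscle and adipocyte scores for *Ccl11* (0.65) and *Cxcl13* (0.41) by *BRAF* status, with the macrophage score for *Ccl22* (-0.43), *Ccl3* (-0.16) and *Cxcr6* (-0.30) by *BRAF* status and *Ccl8* (-0.15), *Ccr2* (-0.27) and *Cxcr6* (-0.24) in PTC, and for *Cxcr6* by *BRAF* status in females only (-0.061) and without *BRAF*(+) AT mouse M_1003 (-0.00056, up to 0.35 without mouse M_946).

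Without single mice, counts ran from 1 to 6 (higher by *BRAF* status), 4 to 10 (higher in BL), 1 to 2 (lower in BL), 0 to 2 (interaction, 2 without mouse M_779), 5 to 9 (*BRAF*(+) BHL), 0 to 5 (*BRAF*(+) AT, 5 without mouse M_779 and 3 without mouse M_523) and 2 to 6 (PTC against *BRAF*(+) AT). The number called among all 4388 probe sets moved as well. For *BRAF*(+) AT it was 307 without mouse M_779, 236 without mouse M_523, 74 without mouse M_1003 and 63 without mouse M_948. For the interaction it was 53 without mouse M_779, and for BL 1528 without mouse M_649, where 2 genes of the set were lower. No paired analysis was possible because mouse numbers are not shared between groups.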
